A study of Homo sapiens with 4 samples.

Results

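Heat shock proteins and their partners were examined as 64 genes of the 10147 in a TT-seq table of human K562 cells depleted of IWS1. The genes were taken by name: the heat shock factors HSF1 and HSF2, and every listed gene of the HSPA, HSPB, HSPH, HSP90, DNAJA, DNAJB and DNAJC families, of the CCT subunits, of the prefoldin subunits with a PFDN name and of the BAG proteins, together with STIP1, AHSA1 and HSPBP1. The prefoldin subunit VBP1 has no such name and is counted with the other folding factors. By the same rule RefSeq holds 94 protein-coding symbols, of which 63 were listed. HSPB11, which RefSeq now calls IFT25, was the remaining gene. The other 31 symbols, among them HSPA8, HSPA9, HSPD1, HSPE1, HSP90B1, TCP1 and CDC37, were not analysed here, so that the main constitutive HSP70 and the mitochondrial HSP60 chaperonin are outside the description. The DNAJC family was the largest, with 21 genes.

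K562 is a chronic myelogenous leukemia line. All samples came from K562 cells edited to carry a degradation tag (dTAG) at the N-terminus of IWS1, a factor that travels with elongating RNA polymerase II, and the control cells carry the tag too. dIWS1 cells received 500 nM of the ligand dTAG7 for 1 h and control cells the solvent DMSO for 1 h, with 2 samples per group, and RNA was labelled with 500 µM 4-thiouridine (4sU) for 5 min. TT-seq counts RNA made during such a short pulse, so the values are RNA synthesis and not RNA amount. The labels do not say whether the edited line is 1 clone. The deposited means could be taken apart into 3 library columns, namely 1 control column that had been entered 2 times and 2 dIWS1 columns, with 29832118, 20684301 and 20886697 reads in genes. The columns carry no names. The column entered 2 times is the denominator of the deposited fold change. It was read as the control, since the study gives its TT-seq fold changes as dIWS1 over control. The table itself does not state this, and every direction against the control rests on it. Of 12 markers of K562 cells 11 were listed, with 129 to 46792 control reads, and of 8 markers of other lineages 0 were.

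Chaperones hold unfolded proteins and let them fold without aggregating. HSP70 proteins (HSPA) bind short stretches of a client in a cycle of ATP use that J-domain proteins (DNAJ) start and exchange factors (HSPH, BAG, HSPBP1) reset, while HSP90 finishes selected clients and the CCT ring folds actin and tubulin that prefoldin brings to it. In heat shock, HSF1 binds heat shock elements and its targets are released from paused polymerase within minutes, which made these genes a classical system for the study of elongation.

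Since heat shock factors act through promoter elements, 300-base windows of RefSeq (GRCh38.p14, 250 bases before to 50 after each start) were searched for the letters GAANNTTCNNGAA and TTCNNGAANNTTC, which are each other's reverse complement and cover both strands. The element was in 133 of 27305 windows (0.487%) and in 22 of the 7464 windows of listed genes (0.295%). Windows were found for 58 of the 64 chaperone genes, and 2 of them held it. Only exact matches within the 300 bases were counted, so imperfect or more distant elements were not searched. Each gene had 1 window at 1 start, so promoters at other starts of a gene were not searched either. A gene without a match is therefore not shown to lack a heat shock element. An endoplasmic reticulum stress element, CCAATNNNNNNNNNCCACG, was searched on both strands too. It was in 22 windows (0.0806%) and in 1 chaperone window. The 3 windows with a match are shown because they hold these letters, with the matched letters in capitals, 5′ to 3′ on the strand of the gene. DNAJA1 is at chr9:33025023-33025322 on the plus strand, with the element from base 4 of the transcript. DNAJB6 is at chr7:157336754-157337053 on the plus strand, with the element from base -131 relative to the start. HSPA5 is at chr9:125241294-125241593 on the minus strand, with the stress element from base -66.
DNAJA1: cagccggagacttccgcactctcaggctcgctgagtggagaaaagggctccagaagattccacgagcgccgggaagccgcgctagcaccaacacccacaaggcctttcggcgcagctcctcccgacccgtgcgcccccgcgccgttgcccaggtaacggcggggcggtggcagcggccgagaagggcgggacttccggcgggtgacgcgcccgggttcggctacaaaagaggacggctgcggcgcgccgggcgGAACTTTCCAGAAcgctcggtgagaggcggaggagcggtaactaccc
DNAJB6: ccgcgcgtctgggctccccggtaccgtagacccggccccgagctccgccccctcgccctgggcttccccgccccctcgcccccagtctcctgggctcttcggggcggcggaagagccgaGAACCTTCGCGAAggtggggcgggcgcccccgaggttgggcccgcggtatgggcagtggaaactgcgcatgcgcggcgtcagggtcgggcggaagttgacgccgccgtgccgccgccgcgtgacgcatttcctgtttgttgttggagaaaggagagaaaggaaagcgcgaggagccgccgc
HSPA5: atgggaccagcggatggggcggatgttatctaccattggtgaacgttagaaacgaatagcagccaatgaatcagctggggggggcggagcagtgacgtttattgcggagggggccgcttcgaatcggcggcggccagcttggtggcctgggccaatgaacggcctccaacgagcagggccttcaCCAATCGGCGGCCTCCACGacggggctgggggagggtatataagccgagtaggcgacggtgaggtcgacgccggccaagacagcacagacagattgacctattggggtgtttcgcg
A match describes the letters only. The 3 genes did not move alike. The log2 fold change (dIWS1/control) was 0.20 for DNAJA1, -0.35 for DNAJB6 and -0.22 for HSPA5.

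The chaperone genes were first compared between dIWS1 and control, with the column entered 2 times read as the control. In limma voom on the recovered reads, scaled by the spike-ins, 30 of 64 genes fell at an adjusted p below 0.05, against 64.5% of all 10136 genes with reads. No chaperone gene rose, against 0.109% of all genes, and 0 reached an unadjusted p below 0.05 for a rise. Among the 60 whose mean reached 100 normalized counts, 28 fell, against 67.5% of genes at that level. The log2 fold change was below 0 in 60 of 64 chaperone genes, against 96.4% of all genes. The median was -0.30 (quartiles -0.45 and -0.15), which is 81.5% of control, while the median over all genes was -0.43, or 74.5% of control. Per column, the chaperone median was -0.36 and -0.22 in dIWS1 columns 1 and 2, where the median of all genes was -0.47 and -0.37. Both columns are set against the same control column, so their agreement is not that of separate comparisons. Both dIWS1 columns lay below the control in 53 genes (92.1% of all genes did so), both lay above it in 2 genes, DNAJA1 and HSPA1B (1.95% of all genes), and in 9 the columns lay on either side of it (5.84%). The p-values rest on the spread between the 2 dIWS1 columns pooled over all genes, with the lone control assumed to vary like them. The direction of the median depended on the spike-ins: scaled by total reads, it was 0.15, with 4 genes lower (10.5% of all genes) and 18 higher (14.5%), and the median of all genes moved up by 0.44 to 0.016.

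**Figure D1:**
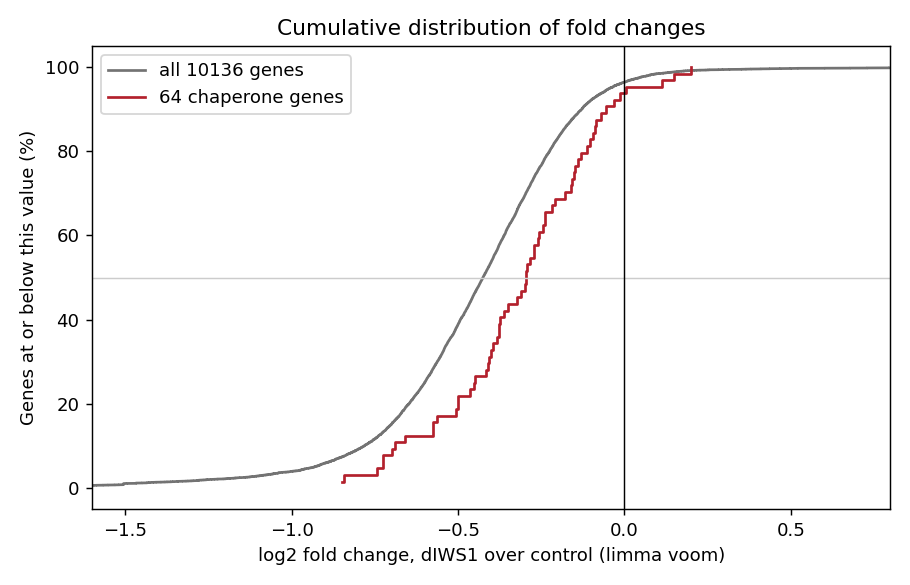
Cumulative share of genes (%) against the log2 fold change (dIWS1 over control, limma voom), for all 10136 genes with reads and for the 64 chaperone genes. The chaperone curve lies to the right over most of its course, with medians of -0.30 and -0.43. A small share of all genes lies beyond the ends of the axis.

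To compare the genes beyond the common decrease, the log2 fold change of the median gene was subtracted. Of the chaperone genes, 47 stood above the median gene (50% of all genes do), and 38 did so in both columns (41.9% of all genes), while 16 stood below it in both (41.9%). The median of the chaperone genes was 0.13 above the median gene on the log2 scale, 0.11 in column 1 and 0.15 in column 2. Within length classes it was 0.10 above the median of all genes of the same class. By limma voom, DNAJA1 and DNAJB11 stood above the median gene at an adjusted p below 0.05 (3.01% of all genes) and DNAJA3 below it (4.78%). Without adjustment, 15 reached p below 0.05 above (10.1% of all genes) and 4 below (11.7%). With limma-trend DNAJA1 alone passed, and DNAJA3 also missed the threshold when the control was entered 2 times as in the deposited mean, where 5 other chaperone genes stood below (15.6% of all genes) and 10 above (11.2%). This count depended on the scaling. Over genes with more than 100 normalized counts, the median log2 ratio of column 1 to column 2 was -0.12, and this offset is part of every gene's spread under spike-in scaling. With total reads, an alternative added after the values were seen, 17 chaperone genes stood above (12.6% of all genes) and 4 below (11.5%), and DNAJA1, DNAJB11 and DNAJA3 were among them.

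**Figure D2:**
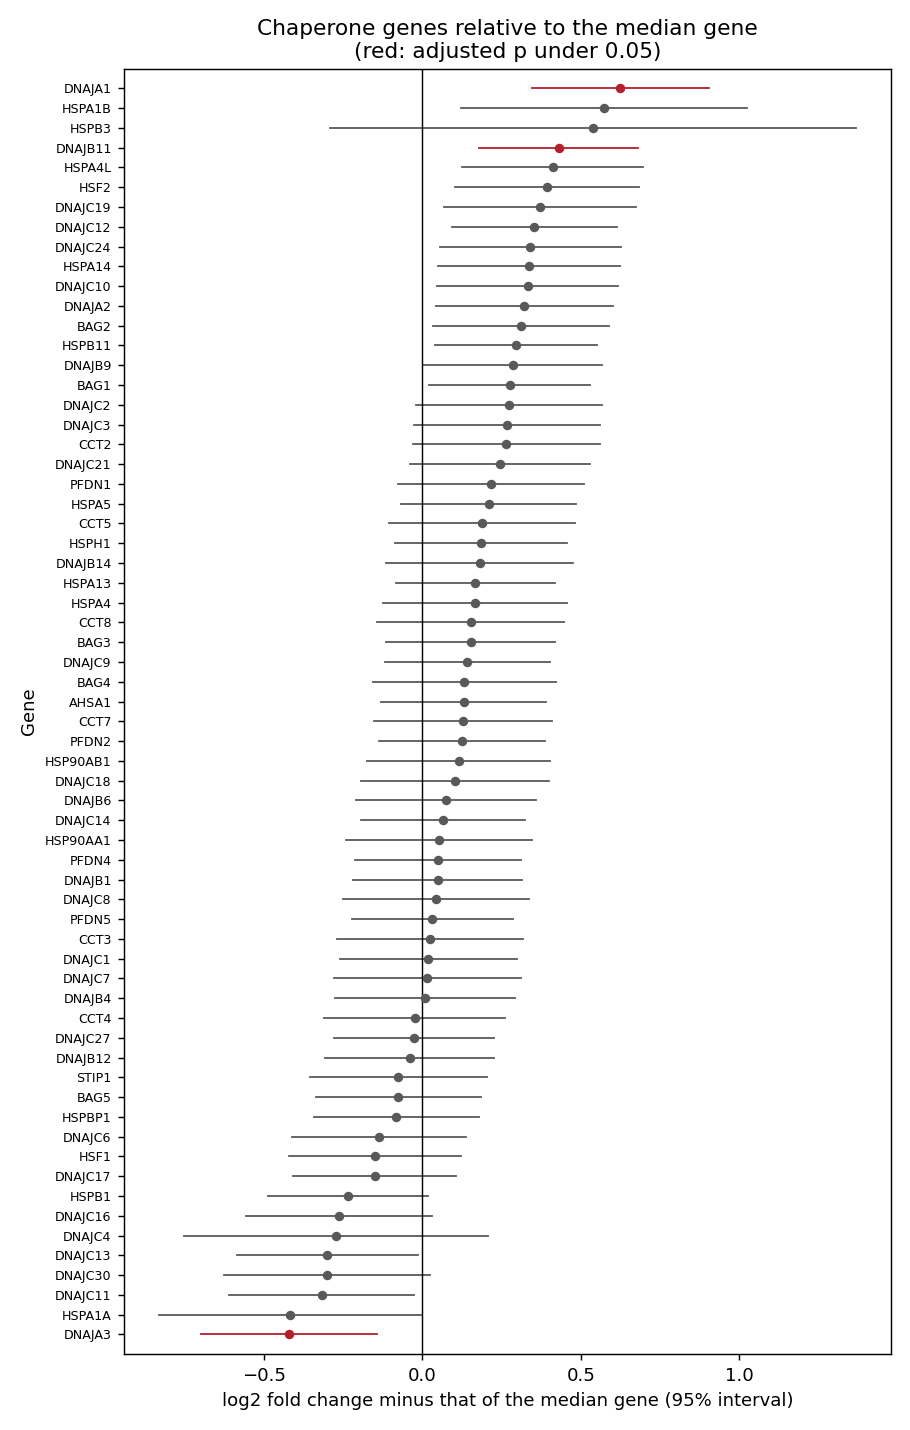
Log2 fold change of each of the 64 genes minus that of the median gene (x axis), with its 95% interval from limma voom, ordered from top to bottom. DNAJA1 and DNAJB11 (above) and DNAJA3 (below) are in red, the genes with an adjusted p below 0.05.

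By family, the median relative to the median gene was 0.32 for DNAJA (3 genes), 0.30 for HSPB (3), 0.21 for HSPA (7), 0.19 for HSPH1 alone, 0.14 for BAG with HSPBP1 (6) and for CCT (6), 0.12 for HSF (2), 0.09 for PFDN (4), 0.08 for HSP90 (2), 0.07 for DNAJB (7), 0.04 for DNAJC (21) and 0.03 for STIP1 with AHSA1 (2). The HSPB value is that of HSPB11, a subunit of the intraflagellar transport machinery, while HSPB1 lay at -0.24. Without HSPB3, which has few reads, the value for HSPB was 0.030. Several of the smaller medians depended on the column. In columns 1 and 2 alone they were 0.070 and 0.17 for HSF, 0.12 and 0.25 for HSPH1, 0.053 and 0.14 for PFDN, 0.16 and -0.0014 for HSP90, -0.0069 and 0.098 for DNAJC, and -0.0062 and 0.054 for STIP1 with AHSA1. The families overlapped. The range within the DNAJA, HSPA, HSPB, DNAJC, HSF and DNAJB families and within BAG with HSPBP1 was wider than that between family medians. The genes are therefore described singly.

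The 3 DNAJA genes, which encode the J-domain proteins closest to bacterial DnaJ, held both ends of the range. DNAJA1, a cytosolic partner of HSP70 (chr9:33025273-33039907, plus strand, 9 exons), stood at 1688 normalized counts in the control and at 1810 and 2074 in dIWS1 columns 1 and 2. Both dIWS1 columns were above the control. The log2 fold change of 0.20 ± 0.14 (SE) did not pass the test against 0 (adjusted p = 0.198), but lay 0.63 above the median gene (95% interval 0.35 to 0.91, adjusted p = 0.000684). DNAJA3, the mitochondrial member of the family (chr16:4425868-4456775, plus strand, 12 exons), stood at 1988, 1018 and 1196 normalized counts. Both dIWS1 columns were far below the control. It fell by 0.85 ± 0.14 (SE) on the log2 scale (adjusted p = 5.81e-08), and its distance to the median gene was -0.42 (95% interval -0.70 to -0.14, adjusted p = 0.0406). DNAJA2, a second cytosolic member, stood at 1731, 1474 and 1760 normalized counts, with the control between the dIWS1 columns. The difference between DNAJA1 and DNAJA3 was 1.05 ± 0.20 (SE) on the log2 scale, 1.07 in column 1 and 1.03 in column 2, and that between DNAJA1 and DNAJA2 was 0.30 ± 0.20. The DNAJA3 promoter (chr16:4425618-4425917, plus strand) is shown for comparison with that of DNAJA1. It is 64.7% G and C, against 69.3% for DNAJA1, and holds neither searched element. The window of DNAJB11, the other gene above the median gene by the test, is 62.0% G and C and holds neither too. Having no exact match to the heat shock element in its window does not set DNAJA3 apart, as only 0.295% of the windows of listed genes held one.
DNAJA3: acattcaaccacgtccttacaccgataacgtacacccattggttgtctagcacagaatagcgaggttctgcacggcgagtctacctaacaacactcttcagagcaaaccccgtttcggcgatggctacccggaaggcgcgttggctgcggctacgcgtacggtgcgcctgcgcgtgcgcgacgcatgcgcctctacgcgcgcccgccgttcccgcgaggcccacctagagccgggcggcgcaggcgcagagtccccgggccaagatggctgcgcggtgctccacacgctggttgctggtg

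The heat shock factors differed as well. HSF1, which switches on the heat shock response, stood at 1575, 1003 and 1113 normalized counts in the control and dIWS1 columns 1 and 2. HSF2, a related factor that can assemble with HSF1, stood at 2698, 2421 and 2870. HSF1 lay below the control in both columns, whereas for HSF2 the control was between them. HSF1 fell by 0.58 ± 0.14 (SE) on the log2 scale (adjusted p = 0.000167), and HSF2 changed by -0.03 ± 0.15 (adjusted p = 0.844). The difference of HSF2 from HSF1 was 0.54 ± 0.20 (SE), 0.49 in column 1 and 0.59 in column 2. Against the median gene, neither passed the test: HSF1 lay at -0.15 (adjusted p = 0.556) and HSF2 at 0.39 (adjusted p = 0.0800).

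**Figure D3:**
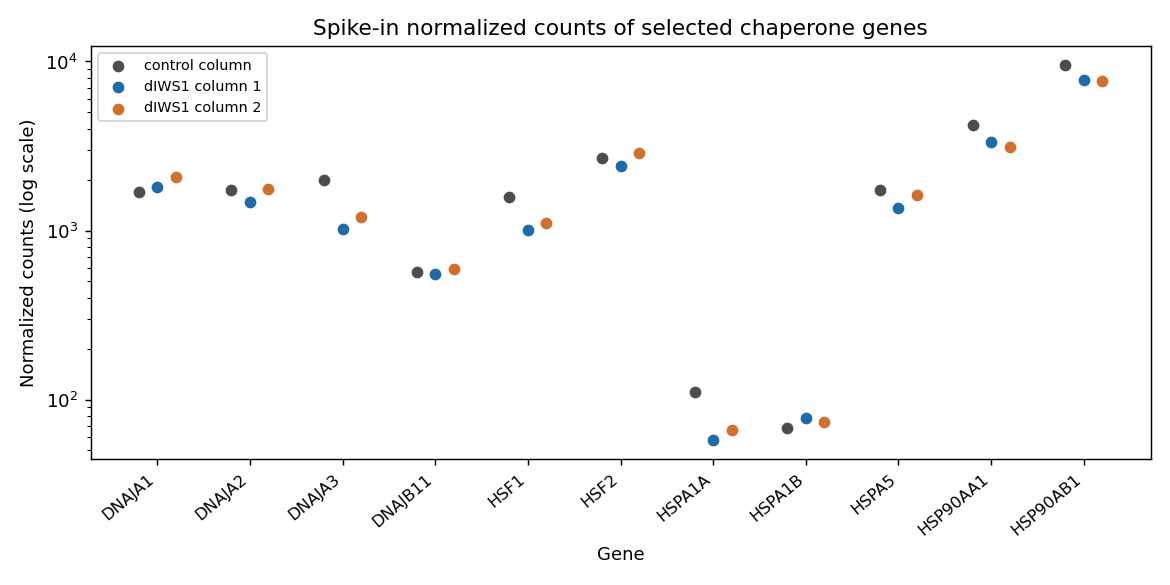
Normalized counts (log scale) of 11 chaperone genes in the control column and in both dIWS1 columns, 1 point per column. DNAJA1 and HSPA1B are above the control in both columns, HSF1, DNAJA3 and HSPA1A are well below it, and HSF2, DNAJA2 and DNAJB11 have the control between the dIWS1 columns.

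Of the 7 HSPA genes, which encode HSP70 proteins and their larger relatives, 1 fell, against 64.5% of all genes. Of the 7, 6 stood above the median gene, as 50% of all genes do, with a family median of 0.21 relative to it. HSPA5, the HSP70 of the endoplasmic reticulum known as BiP, stood at 1725, 1366 and 1612 normalized counts, both dIWS1 columns below the control (log2 fold change -0.22 ± 0.14, SE; adjusted p = 0.162). HSPA4L, an exchange factor of the HSP110 group, stood at 2118, 2004 and 2195, with the control between the dIWS1 columns. It changed by -0.01 ± 0.15 (SE) and lay 0.41 above the median gene (adjusted p = 0.0568). HSPA14, which works with DNAJC2 at the ribosome, changed by -0.09 ± 0.15, and HSPA4, a further HSP110 exchange factor, and HSPA13 both by -0.26. HSPH1, an exchange factor of the same HSP110 group, stood at 1433, 1120 and 1314 normalized counts, with both dIWS1 columns below the control.

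The gene that fell was HSPA1A, the heat-inducible HSP70, whose values and those of its near copy HSPA1B were singled out after they were seen. HSPA1A (chr6:31815543-31817942, plus strand, 1 exon) stood at 111, 57.4 and 66.3 normalized counts, and HSPA1B (chr6:31827738-31830254, plus strand, 1 exon) at 68.3, 77.5 and 74.0. HSPA1A was below the control in both columns and HSPA1B above it in both. HSPA1A fell by 0.84 ± 0.21 (SE) on the log2 scale (adjusted p = 0.000270). HSPA1B changed by 0.15 ± 0.23 (adjusted p = 0.555), and the difference between them was 0.99 ± 0.31 (SE), 1.13 in column 1 and 0.85 in column 2. Both values are uncertain, because the copies share most of their sequence. Of all 40-base windows of the longest GENCODE transcript, 75.9% of those of HSPA1A and 72.3% of those of HSPA1B occur in the other copy, and only unique alignments were kept.

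Among the 7 DNAJB genes 4 fell (57.1%), against 64.5% of all genes, and 1 stood above the median gene by the test (3.01% of all genes). DNAJB1, the main HSP40 of the cytosol, stood at 363, 265 and 295 normalized counts and fell by 0.38 ± 0.14 (SE) on the log2 scale (adjusted p = 0.0116). The related DNAJB4 fell by 0.42, DNAJB12 of the endoplasmic reticulum membrane by 0.47, and DNAJB6, which holds back protein aggregation, by 0.35. In these genes both dIWS1 columns were below the control. DNAJB11, a J-domain partner of BiP in the lumen of the endoplasmic reticulum (chr3:186570720-186585793, plus strand, 10 exons), stood at 570, 551 and 594 normalized counts. The control was between the dIWS1 columns. The log2 fold change was 0.01 ± 0.13 (SE), which is 0.43 above the median gene (95% interval 0.18 to 0.68, adjusted p = 0.0169). DNAJB9, another partner of BiP, stood at 269, 210 and 286 normalized counts, again with the control between the columns, and DNAJB14 changed by -0.24 ± 0.15.

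The DNAJC family, whose members share little beyond the J domain, had 12 of 21 genes lower (57.1%), against 64.5% of all genes. Its median was 0.04 relative to the median gene. The lowest with at least 100 normalized counts was DNAJC11, a mitochondrial protein. It stood at 6369, 3623 and 3993 normalized counts and fell by 0.74 ± 0.15 (SE) on the log2 scale (adjusted p = 6.38e-06). DNAJC30, also mitochondrial, and DNAJC13, which acts on endosomes, both fell by 0.73, with 201, 121 and 122 normalized counts for DNAJC30 and 2618, 1460 and 1712 for DNAJC13. In all 3 genes both dIWS1 columns were well below the control. At the other end, DNAJC19 of the mitochondrial import motor stood at 206, 179 and 221 normalized counts, and DNAJC12, a partner of the aromatic amino acid hydroxylases, at 999, 882 and 1025. In both, the control was between the dIWS1 columns. DNAJC24, which takes part in diphthamide synthesis, changed by -0.08 ± 0.15. The gene with the most reads was DNAJC6, which encodes auxilin and uncoats clathrin vesicles, with 22528 reads in the control, and it fell by 0.56 ± 0.14 (SE).

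**Figure D4:**
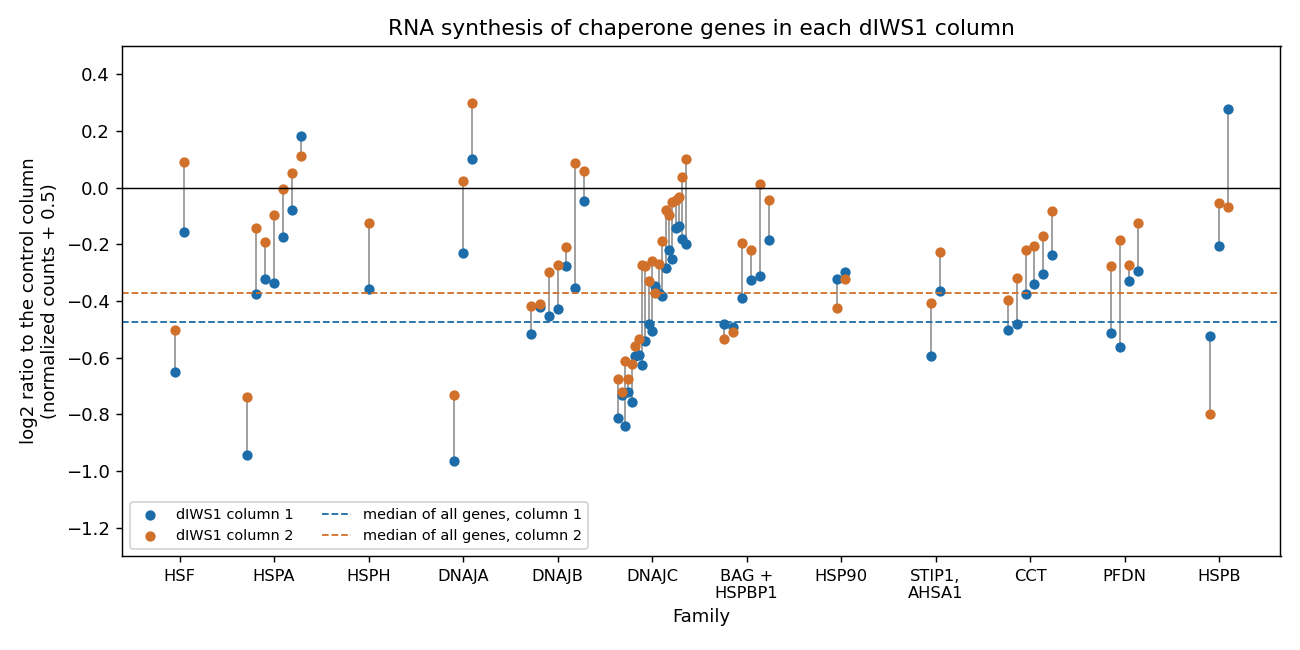
Log2 ratio of each gene to the control column (normalized counts with 0.5 added), by family. Each gene has 2 points, 1 per dIWS1 column, joined by a line, and dashed lines mark the median of all genes in each column (-0.47 and -0.37). The DNAJA, HSPA, DNAJC and HSPB families reach from above the control to well below the dashed lines, and the CCT and PFDN subunits lie close together. In HSPB the gene above the control is HSPB3, which has few reads.

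When the J-domain and HSP70 proteins were grouped by compartment, a grouping made after the values were seen, all 6 genes of the lumen of the endoplasmic reticulum (HSPA5, HSPA13, DNAJB9, DNAJB11, DNAJC3 and DNAJC10) stood above the median gene, as 50% of all genes do, with a median of 0.28 relative to it. By limma voom 0 of the 6 fell, against 64.5% of all genes. Other genes of this compartment did fall, among them DNAJB12 and DNAJC1 of its membrane and HYOU1, an HSP70 relative in its lumen that is outside the 64 genes (by 0.36 on the log2 scale, adjusted p = 0.0110). Of the 4 mitochondrial genes (DNAJA3, DNAJC11, DNAJC19 and DNAJC30) 3 fell (75.0%), against 64.5% of all genes. Of the 4, 1 stood above the median gene, against 50% of all genes, and the median of the 4 was -0.31 relative to it. DNAJC3, a BiP cofactor, stood at 5111, 4385 and 4780 normalized counts, and DNAJC10, a disulfide reductase with a J domain, at 2156, 1953 and 2091. For both, the dIWS1 columns were slightly below the control. These groups carry no test, and HYOU1 was named after its values were seen.

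BAG proteins and HSPBP1, exchange factors of HSP70, had a median of 0.14 relative to the median gene. Of the 6 genes 4 stood above it, as 50% of all genes do, and 2 fell, against 64.5% of all genes. HSPBP1 stood at 435, 311 and 300 normalized counts and BAG5 at 428, 304 and 300. Both genes had both dIWS1 columns below the control and fell by 0.51 and 0.50 on the log2 scale. BAG3, which links HSP70 clients to autophagy, stood at 1211, 966 and 1040 (log2 fold change -0.27 ± 0.14, SE; adjusted p = 0.0651). BAG1 changed by -0.15 ± 0.13, BAG2 by -0.11 ± 0.14 and BAG4 by -0.29 ± 0.15.

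HSP90AB1, the constitutive HSP90 of the cytosol, had the highest synthesis per length, with 1244 normalized counts per kb of gene in the control, followed by HSPB1 with 423 and CCT5 with 315. Length is the full RefSeq span, 7690 bases for HSP90AB1 and 59008 for HSP90AA1 (70.9 per kb), and the order depends on it. HSP90AB1 stood at 9567, 7779 and 7648 normalized counts, and the inducible HSP90AA1 at 4183, 3348 and 3118. For both genes the dIWS1 columns lay close together and below the control. HSP90AA1 fell by 0.37 ± 0.15 (SE) on the log2 scale (adjusted p = 0.0232). HSP90AB1 missed the threshold with a change of -0.31 ± 0.15 (adjusted p = 0.0533), and the difference between the genes was 0.06 ± 0.21. STIP1, which passes clients from HSP70 to HSP90, fell by 0.50 ± 0.14, and AHSA1, which stimulates the HSP90 ATPase, by 0.29 ± 0.13.

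The subunits of the folding machines for actin and tubulin moved within a narrow range. For the 6 listed CCT genes the log2 fold change ran from -0.45 to -0.16, with a median of -0.28, and CCT4 and CCT3 fell. CCT4 stood at 2387, 1683 and 1812 normalized counts, and CCT2, at the upper end, at 3825, 3244 and 3614. In every CCT and PFDN gene both dIWS1 columns were below the control. The 4 PFDN genes ran from -0.39 to -0.21, and PFDN5, PFDN4 and PFDN2 fell. The calls are 33.3% of the CCT and 75.0% of the PFDN genes, against 64.5% of all genes. VBP1, a prefoldin subunit outside these genes, fell by 0.31 on the log2 scale (adjusted p = 0.0451). PFDN5 stood at 776, 544 and 641 normalized counts and PFDN1, the gene that did not pass the test, at 4529, 3691 and 4158.

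Among the genes named HSPB, the small heat shock protein HSPB1 (HSP27) stood at 685, 476 and 394 normalized counts. It fell by 0.66 ± 0.13 (SE) on the log2 scale (adjusted p = 3.65e-06). Both dIWS1 columns were well below the control, column 2 more so. HSPB11, a subunit of the intraflagellar transport machinery, changed by -0.13 ± 0.13. HSPB3 had 15, 18 and 13 reads, too few to show a change (log2 fold change 0.11 ± 0.42).

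Genes that heat induces were compared with the other chaperone genes, since the response is controlled by HSF1. Of a list of 16 heat-inducible genes, 13 were listed here, namely HSPA1A, HSPA1B, HSPA4L, HSPH1, DNAJA1, DNAJB1, DNAJB4, BAG3, HSP90AA1, HSP90AB1, STIP1, AHSA1 and HSPB1. The 13 genes had a median of 0.11 relative to the median gene, with 7 lower (53.8%). The other 51 genes had a median of 0.13, with 23 lower (45.1%), against 64.5% of all genes. HSP90AB1, described above as constitutive, is on the list, and its own value of 0.11 is the median of the 13. The inducible list reached from -0.84 in HSPA1A to 0.20 in DNAJA1. By gene length, the chaperone median was above that of all genes in each of 4 classes, with -0.36 against -0.49 in the shortest genes (13 chaperone genes), -0.28 against -0.39 in short genes (20), -0.28 against -0.35 in long genes (24) and -0.41 against -0.49 in the longest (7).

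Other folding factors were counted in 5 lists, whose medians ran from -0.14 to 0.08 relative to the median gene. By the test against control, 64.5% of all genes fell. In the lists, in the order given here, 61.1%, 66.7%, 62.5%, 54.5% and 80.0% fell. Of 18 partners of HSP90 and HSP70 with reads, 11 fell and the median was 0.05 relative to the median gene. GAK, an auxilin-like kinase, was the lowest of them with a log2 fold change of -0.84, and PPID, a cyclophilin that binds HSP90, the highest with 0.05. PPID stood 0.47 above the median gene (adjusted p = 0.00787), and CDC37L1, named after its values were seen, 0.43 above it (adjusted p = 0.0164). Of 12 partners of CCT, prefoldin and tubulin, with the prefoldin subunit VBP1 among them, 8 fell, with a median of 0.06. They ran from -0.91 in TBCD, a tubulin cofactor, to -0.13 in PDCL3. Relative to the median gene TBCD lay at -0.49 (adjusted p = 0.0213). The 8 mitochondrial factors had a median of -0.09, with 5 lower, from TRAP1, the mitochondrial HSP90 (-0.81), to CLPX (-0.08). The 11 factors of the endoplasmic reticulum had a median of 0.08, with 6 lower, from SIL1, an exchange factor of BiP (-0.77), to ERO1A (-0.16). The list for R2TP, an HSP90 adaptor for the assembly of large complexes, also held TELO2 and TTI1, which are not R2TP subunits. It had 4 of 5 genes lower and a median of -0.14, which is the value of TELO2. Relative to the median gene, the R2TP subunits PIH1D1 and RPAP3 lay at -0.0053 and 0.25. The R2TP ATPase RUVBL1 had 2960, 1145 and 1155 reads, with both dIWS1 columns far below the control. RUVBL1 fell by 1.28 ± 0.15 (SE) on the log2 scale (adjusted p = 2.48e-16), further than any chaperone gene. Relative to the median gene it lay at -0.86 (adjusted p = 6.27e-07). RPAP3 changed by -0.18.

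The tagged gene IWS1 itself had 3684, 2334 and 2427 reads. Its synthesis fell by 0.55 ± 0.15 (SE) on the log2 scale (adjusted p = 0.000780), and it lay at -0.13 relative to the median gene (adjusted p = 0.657). Depletion acts on the protein, so this value does not test the labels. Across genes with over 100 normalized counts the SD of the log2 ratio of column 1 to column 2 was 0.13, and 0.12 in the chaperone genes. The chaperone genes had 15 to 22528 control reads (median 1748) and a median SE of 0.14.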

How the data were processed

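TT-seq reads were aligned by the authors with STAR 2.6.0 to GRCh38 with added spike-in sequences, unique alignments were kept, and fragments were counted per RefSeq gene with strand. The authors removed overlapping genes, kept genes over an expression threshold and ran DESeq2 with spike-in size factors. In the RefSeq annotation used here, 28 of the 63 chaperone genes listed under their RefSeq symbol still overlap another gene, without regard to strand. The share over all genes was not counted. The deposited table holds a signal (the mean over columns of counts divided by size factors) and the authors' comparison, whose log2 fold changes, errors and p-values are not reported. The deposited log2 value served only to choose among splits of a mean into whole reads and to compare them with 1 column entered 2 times. For genes with larger means the search already assumed this, so that comparison is not a separate check. All 10136 genes with a mean above 0 had 1 solution, and 64 of 64 chaperone genes had 1 from the mean alone. Which replicate a column holds is not named.

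Recovered reads were fitted with voom and lmFit in limma 3.58.1 (R 4.3.3), with spike-in size factors as library sizes, Benjamini-Hochberg adjustment over all genes and a threshold of 0.05. In a second test the median log2 fold change was subtracted. A pseudocount of 0.5 was used for ratios of single columns. In simulated data for 10136 genes, 199 of 200 genes changed by 1 on the log2 scale were called, and 7 unchanged ones. The simulated columns had neither the common decrease nor the offset between the dIWS1 columns seen in the data. The simulation therefore cannot tell how often smaller changes were missed or genes wrongly called here. Of the listed genes, 9353 were found in RefSeq under their symbol, 169 through a gene number and 576 under a synonym, and 49 were not found. Length classes were bounded at 10, 26.5 and 65 kb. Genes given in full were all those of families of up to 6, the 3 lowest and 3 highest of larger families with a mean of at least 100, and those called relative to the median gene, while other genes were named after their values were seen. The genes and lists were chosen with earlier results of these data known. Python 3.11.15 with numpy 2.4.6, pandas 2.3.3 and matplotlib 3.10.9 was used.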

Additional observations from a re-analysis of the deposited data

How the results depend on the processing

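No paired analysis was possible because the columns carry no replicate numbers and the control was counted once. With a minimum log2 change of 0.5, 14 chaperone genes were lower in place of 30, and with total-read scaling 4 were lower and 18 higher (10.5% and 14.5% of all genes). Relative to the median gene, where 1 was lower and 2 higher, limma-trend with a pseudocount of 0.5 or 5, an adjusted p below 0.01 and a minimum change of 0.5 each left 0 lower and 1 higher. For the minimum change of 0.5, limma-trend and the adjusted p below 0.01, the share over all genes was not counted. Those counts therefore cannot be set against all genes. The control entered 2 times gave 5 lower and 10 higher (15.6% and 11.2% of all genes), and total-read scaling (added after the values were seen) 4 lower and 17 higher (11.5% and 12.6%). Centred on the length class, the median was 0.086 for BAG and HSPBP1, 0.11 for CCT and 0.22 for HSPB. With a minimum mean of 100, HSPB was at 0.017 and the HSP90 and HSP70 partners at 0.041, and with a pseudocount of 5 the partners were at 0.042.

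Each dIWS1 column alone gave relative medians of 0.27 to 0.30 for HSPB, 0.074 to 0.12 for the heat-inducible genes, 0.058 and 0.060 for the HSP90 and HSP70 partners, 0.050 to 0.15 for the CCT and tubulin partners and -0.18 to -0.041 for the list of R2TP with TELO2 and TTI1. The families HSP90 (0.16 to -0.0014), DNAJC (-0.0069 to 0.098) and STIP1 with AHSA1 (-0.0062 to 0.054) changed sign between the columns. The cause of these differences was not tested.

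Total-read scaling shifted the median of all genes by 0.44. The shift is common to every gene and not particular to the chaperone genes. It moved their median to 0.15 and turned the direction of 47 named genes from below 0 to above it on the log2 scale: HSF2 0.41, HSPA4 0.18, HSPA13 0.18, HSPA5 0.22, HSPA14 0.35, HSPA4L 0.43, HSPH1 0.20, DNAJA2 0.34, DNAJB4 0.026, DNAJB1 0.067, DNAJB6 0.091, DNAJB14 0.20, DNAJB9 0.31, DNAJC7 0.033, DNAJC1 0.036, DNAJC8 0.060, DNAJC14 0.081, DNAJC18 0.12, DNAJC9 0.16, DNAJC21 0.26, DNAJC3 0.28, DNAJC2 0.29, DNAJC10 0.35, DNAJC24 0.36, DNAJC12 0.37, DNAJC19 0.39, BAG4 0.15, BAG3 0.17, BAG1 0.29, BAG2 0.33, HSP90AA1 0.069, HSP90AB1 0.13, AHSA1 0.15, CCT3 0.041, CCT7 0.14, CCT8 0.17, CCT5 0.20, CCT2 0.28, PFDN5 0.048, PFDN4 0.070, PFDN2 0.14, PFDN1 0.23, HSPB11 0.31, PDCL3 0.32, CLPX 0.36, ERO1A 0.28, RPAP3 0.26. Centred on the length class, 6 turned from above to below: DNAJB4 -0.071, DNAJB1 -0.032, DNAJC7 -0.064, DNAJC8 -0.037, HSP90AA1 -0.028, CCT3 -0.055. DNAJB4 lay at -0.0016 with a pseudocount of 5 and at -0.0034 with a minimum mean of 100. Only 3 columns with 1 control limit the precision, and no gene can be checked against a second control.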
